A study of Rattus norvegicus with 6 samples.

Results

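The genes that mark microglia, the receptor CSF1R among them, and both ligands of that receptor were followed in cultured rat spinal cord neurons after silencing of galectin-3 (GAL3). The 8 identity genes were CX3CR1, P2RY12, TMEM119, GPR34, AIF1, PTPRC, ITGAM and CSF1R, and the 2 ligands were CSF1 and IL34. These 10 genes were chosen by symbol and all 10 were listed among the 17648 genes of the deposited matrix. The dataset held 6 RNA sequencing libraries of spinal cord neurons from neonatal Sprague-Dawley rats, 3 that received a control siRNA (Glu + siR-Con) and 3 that received an siRNA against GAL3 (Glu + siR-GAL3). In the described protocol, neurons of both groups met 10 μM glutamate for 1 h after 3 days of culture and then stayed 16 h in medium without it, and cytosine arabinoside at 0.05 mg/mL was given 24 h after plating against dividing cells. The sample labels instead give saline, which is 0 μM glutamate, for the siR-Con libraries and call the siR-GAL3 samples a knockout, while the design text calls all 6 glutamate-treated. If the sample labels were right, the siRNA and glutamate could not be told apart. The paper describes its data in general as coming from independent repeats of the experiments, but no source used here ties each library to its own culture or litter. Each SD and p-value measures the spread between these libraries, which may be technical.

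Microglia are the resident macrophages of the brain and spinal cord. Their survival depends on CSF1R, a receptor tyrosine kinase that is activated by either of 2 ligands, CSF1 and IL34, which neurons and glia supply. In the resting state microglia are marked by CX3CR1, P2RY12, TMEM119 and GPR34, whose expression usually falls when the cells are activated, whereas AIF1 (IBA1), PTPRC (CD45) and ITGAM (CD11b) are also carried by activated microglia and by other macrophages.

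Expression was deposited on a linear scale derived by the authors from FPKM, in which the fragments of a gene are divided by transcript length. How the authors' later corrections acted on each gene is unknown. Levels, sums and ratios of different genes are therefore set side by side only as a description. The column totals lay between 64313 and 64714 after the authors' scaling, and how deeply each library was sequenced is unknown. Each pair of libraries shared between 238 and 1463 exactly equal values other than 0, and joining pairs that shared over 1000 gave 3 sets, with 1312 to 1463 shared values within a set and 238 to 264 between sets. Set 1 held replicate 1 of both groups, set 2 held siR-Con replicates 2 and 3 with siR-GAL3 replicate 3, and set 3 was siR-GAL3 replicate 2 by itself. The last library also lay apart from the others on the first principal component, which carried 65.2% of the variance. The targeted gene, listed as LGALS3, was between 54.4 and 77.4 in the siR-Con libraries and at -1.64, 32.3 and 18.5 in siR-GAL3 replicates 1, 2 and 3, so that all siR-GAL3 libraries were lower. FPKM cannot be below 0, so the -1.64 is no longer an FPKM, and none of the 10 genes held a value below 0.

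The labelled cell type was checked against marker lists. Of the neuron list, MAP2 lay between 13.1 and 19.0 and TUBB3 between 4.03 and 5.19, but the nuclear neuron marker RBFOX3 (NeuN) reached at most 0.429, which is below the mean of each identity gene. The astrocyte filament GFAP lay between 514.8 and 757.7 and the myelin gene MBP between 628.6 and 918.5. The summed value of 11 neuron markers was 31.8 to 38.9 per library, against 801.5 to 1069 for 8 astrocyte markers. The 8 identity genes summed to 22.0 to 28.02 in siR-Con and 25.1 to 34.7 in siR-GAL3. Markers of other cells were thus abundant, and in such bulk RNA a change in the number of microglia and one in RNA per microglial cell cannot be told apart. Blood leukocytes also express PTPRC and ITGAM, and the neutrophil and monocyte markers S100A8 and S100A9 lay between -0.0188 and 0.0309 in all 6 libraries. Of the 10 leukocyte markers 3 were not listed in the matrix, CCR2, CD3E and CD3D, and could not be read. The part of leukocyte RNA in PTPRC and ITGAM was not tested.

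**Figure D1:**
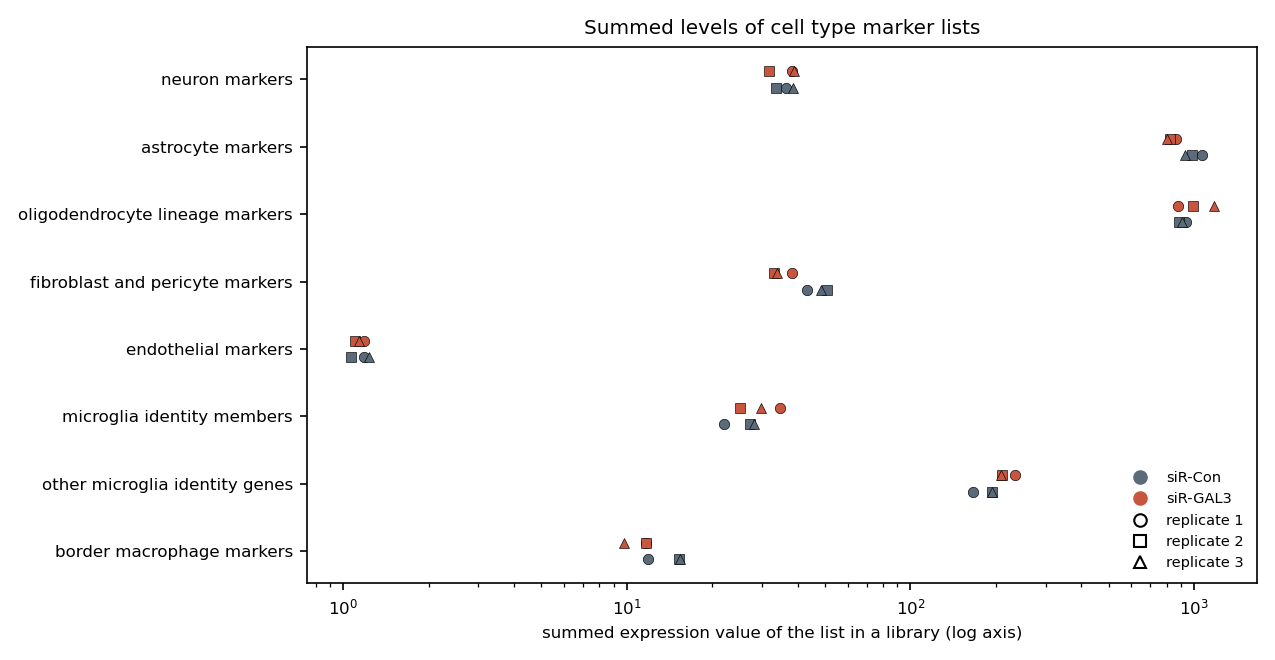
Summed expression value of each marker list in each library (horizontal log axis; grey siR-Con, red siR-GAL3; symbols give the replicate number). The 8 identity genes summed to 22.0 to 34.7 over the 6 libraries, far below the astrocyte list at 801.5 to 1069 and above the endothelial list at no more than 1.24.

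Over the 6 libraries CSF1R had the highest mean level of the 10 genes, at 11.8, followed by CSF1 at 7.74, CX3CR1 at 4.06, GPR34 at 3.94, AIF1 at 2.44, ITGAM at 2.07, P2RY12 at 1.60, PTPRC at 1.38, TMEM119 at 0.471 and IL34 at 0.0318. CSF1R exceeded CSF1 and CSF1 exceeded CX3CR1 in 6 of 6 libraries. The neighbours CX3CR1 and GPR34 kept this order in only 4 libraries, as did AIF1 and ITGAM, and ITGAM exceeded P2RY12 in 5. The order of these pairs was thus not constant. P2RY12 exceeded PTPRC in 3 of 3 siR-Con libraries and in 1 of 3 siR-GAL3 libraries, and whether this order differed by group was not tested. Of the 10 genes, 8 reached a mean of 1 and were tested in limma together with all 8495 such genes on log2(value + 1), and TMEM119 and IL34 were read from the same fit without that filter. Adding 1 makes this log2 fold change smaller than the true one for genes at such low levels. Below, the 3 values of a group stand in the order of replicates 1, 2 and 3.

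The 10 genes fell into different patterns. AIF1, PTPRC and ITGAM were higher in every siR-GAL3 library than in every siR-Con library, by 76.8%, 68.2% and 46.5% of the siR-Con mean. CX3CR1, P2RY12, TMEM119, GPR34 and CSF1R overlapped between the groups, and their means differed by between 2.07% and 8.20%. CSF1 was lower in every siR-GAL3 library, by 17.8%, and IL34 was close to 0 in all libraries. This division was made after the values were seen.

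**Figure D2:**
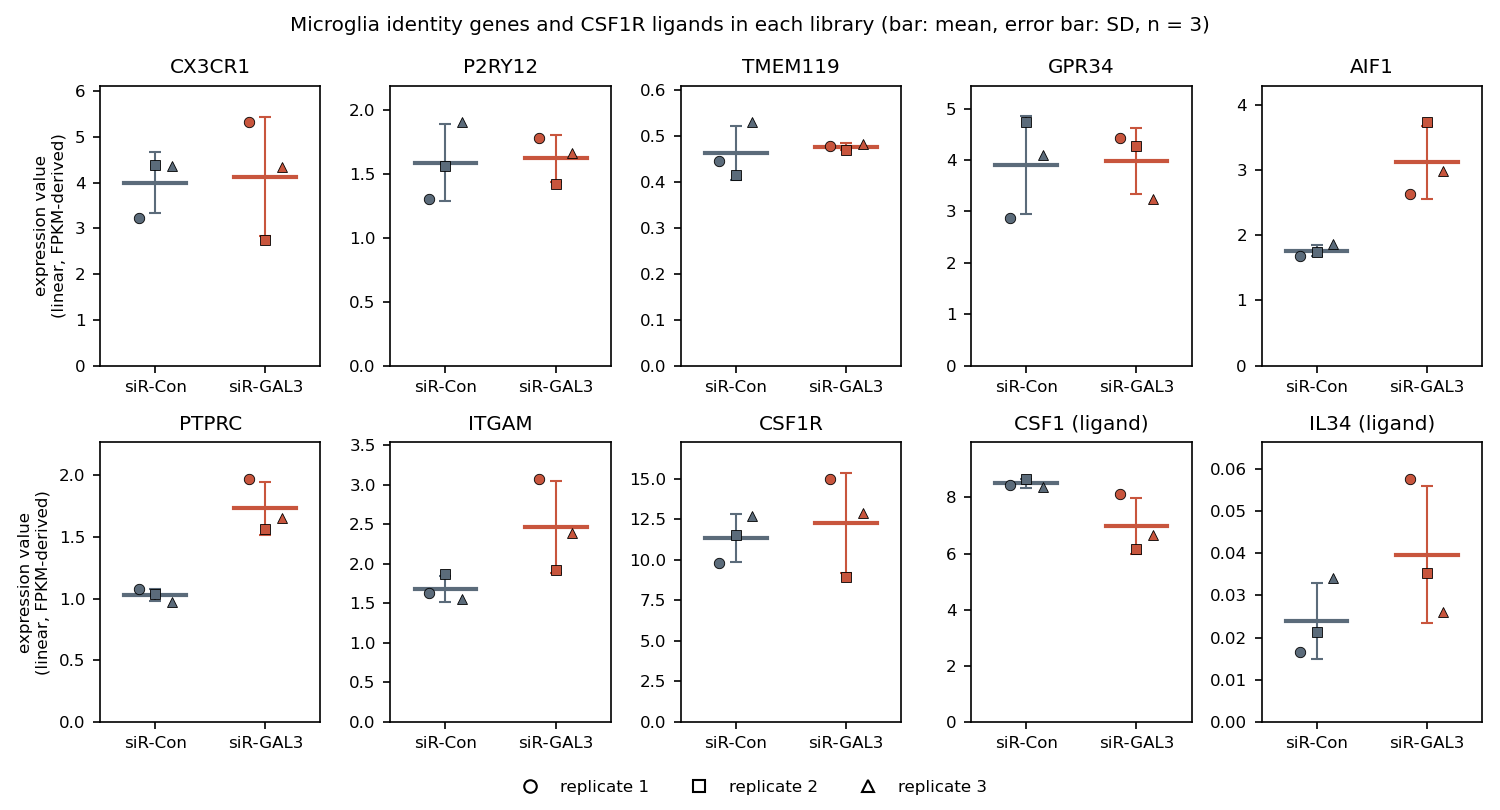
Expression value (linear, derived from FPKM) of each gene in the 3 siR-Con (grey) and 3 siR-GAL3 (red) libraries, each panel from 0, with the mean as a bar, the SD as an error bar and the replicate number as a symbol. The groups do not overlap for AIF1, PTPRC, ITGAM and CSF1, and overlap for the other 6 genes.

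Of the 8 identity genes, 3 were higher without overlap between groups, against 10.3% of all genes tested. In limma the same 3 had an unadjusted p under 0.05 in this direction, against 4.41% of all genes tested. After Benjamini-Hochberg adjustment none of the 10 genes passed 0.05, and 4 had an unadjusted p under 0.05 in limma. No gene of the whole table had an adjusted p under 0.05 in limma, the smallest being 0.0695, while 736 had an unadjusted p under 0.05. None of the 10 passed the screening criteria of the study, |log2 fold change| > 1 with an unadjusted p under 0.05, which 0.318% of the genes passed. The median log2 fold change of the 8 identity genes was 0.06, beside a median of -1.19e-05 and quartiles of -0.10 and 0.10 over all genes tested.

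AIF1 encodes IBA1, a calcium-binding protein that bundles actin in microglia and macrophages and is the usual stain for these cells. It measured 1.69, 1.74 and 1.86 with the control siRNA and 2.64, 3.73 and 2.98 with siR-GAL3. The siR-Con libraries lay close together and the highest value was that of siR-GAL3 replicate 2. The mean was 1.76 ± 0.0883 (SD, n = 3) in siR-Con and 3.12 ± 0.558 (SD, n = 3) in siR-GAL3. The log2 fold change was 0.57 (standard error 0.10, unadjusted p = 0.000946 and adjusted p = 0.149 in limma), and 52 of the 8495 genes had a larger one.

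PTPRC encodes CD45, a receptor tyrosine phosphatase of all nucleated blood-lineage cells that is low on resting microglia. It measured 1.08, 1.04 and 0.972 with the control siRNA and 1.97, 1.57 and 1.65 with siR-GAL3. All siR-GAL3 libraries stood clear of the siR-Con libraries, and the highest was replicate 1. The means were 1.03 ± 0.0523 and 1.73 ± 0.213 (SD, n = 3 each), with a log2 difference of 0.43 (standard error 0.07, unadjusted p = 0.000665 and adjusted p = 0.149 in limma).

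ITGAM encodes CD11b, the alpha chain of complement receptor 3, which takes part in adhesion and uptake. It measured 1.63, 1.87 and 1.55 with the control siRNA and 3.07, 1.92 and 2.39 with siR-GAL3. Here siR-GAL3 replicate 2 lay only just above the highest siR-Con library. The means were 1.68 ± 0.164 and 2.46 ± 0.578 (SD, n = 3 each), with a log2 difference of 0.36 (standard error 0.12, unadjusted p = 0.0244 and adjusted p = 0.510 in limma). For each of AIF1, PTPRC, ITGAM and CSF1 the exact permutation test of the deposited values gave a two-sided p of 0.1, the smallest that 3 against 3 allow.

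CSF1R, the receptor of both ligands, measured 9.81, 11.5 and 12.7 with the control siRNA and 15.0045, 8.94 and 12.9 with siR-GAL3. The siR-GAL3 libraries held both the highest and the lowest of the 6 values. The means were 11.4 ± 1.47 and 12.3 ± 3.08 (SD, n = 3 each), and the log2 fold change of 0.08 had a 95% confidence interval from -0.35 to 0.52 in limma. CX3CR1, the receptor of the neuronal chemokine fractalkine, followed the same order of libraries within the siR-GAL3 group. It measured 3.22, 4.38 and 4.37 with the control siRNA and 5.31, 2.75 and 4.33 with siR-GAL3. Again siR-GAL3 replicate 1 was the highest and replicate 2 the lowest of all libraries, and the interval of the log2 fold change was -0.45 to 0.49.

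P2RY12, the receptor through which microglia sense ADP, measured 1.30, 1.56 and 1.90 with the control siRNA and 1.78, 1.42 and 1.66 with siR-GAL3. All siR-GAL3 values lay inside the siR-Con range, and the interval was -0.22 to 0.26. GPR34, a receptor for lysophosphatidylserine, measured 2.86, 4.73 and 4.10 with the control siRNA and 4.43, 4.27 and 3.24 with siR-GAL3. Its siR-GAL3 values also lay inside the siR-Con range, and the interval was -0.36 to 0.42. TMEM119, a membrane protein that separates microglia from blood-derived macrophages, was low throughout, between 0.415 and 0.530 in siR-Con and between 0.470 and 0.484 in siR-GAL3. The exact permutation p of these 5 genes lay between 0.7 and 1.0 (two-sided), and the intervals of CX3CR1, GPR34 and CSF1R reach differences as large as that of ITGAM.

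CSF1, the ligand made by neurons and glia, measured 8.45, 8.67 and 8.37 with the control siRNA and 8.12, 6.17 and 6.66 with siR-GAL3. The siR-Con libraries were nearly equal, and siR-GAL3 replicate 1 lay only slightly below them. The means were 8.496 ± 0.152 and 6.98 ± 1.01 (SD, n = 3 each), with a log2 difference of -0.26 (standard error 0.10, unadjusted p = 0.0344 and adjusted p = 0.535 in limma). CSF1 was the 1 gene of the 10 that was lower without overlap, against 10.3% of all genes tested, and with an unadjusted p under 0.05 in that direction, against 4.25%. A count of 1 among 10 is near the 10.3% share of all genes. IL34, the ligand supplied mainly by neurons in the brain, measured 0.0166, 0.0212 and 0.0341 with the control siRNA and 0.0577, 0.0353 and 0.0260 with siR-GAL3. The groups overlapped (exact permutation p = 0.2, two-sided), and without the depth it is unknown how many reads such values stand for, so no fold change is given. CSF1 was far above IL34 in each library.

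**Figure D3:**
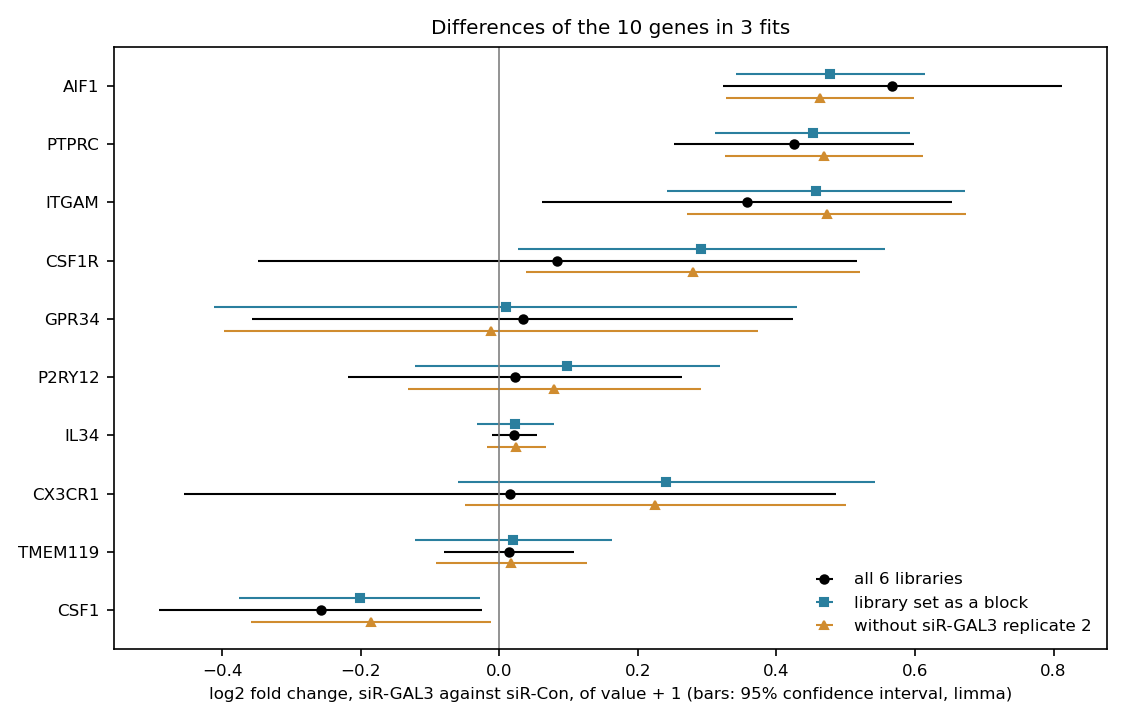
Log2 fold change of value + 1 for each gene, siR-GAL3 against siR-Con, with its 95% confidence interval in limma (horizontal axis), from all 6 libraries (black), with the library set as a block (blue) and without siR-GAL3 replicate 2 (orange). The intervals of AIF1, PTPRC and ITGAM lie above 0 and that of CSF1 below 0 in all 3 fits, while the interval of CSF1R lies above 0 in 2 of them.

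The library that stood alone weighed on these results. Among the identity genes siR-GAL3 replicate 2 was lowest for CSF1R and CX3CR1 and highest for AIF1. Without it AIF1, PTPRC and ITGAM had adjusted p of 0.0168, 0.0182 and 0.0420 in limma, with log2 fold changes of 0.46, 0.47 and 0.47, in a fit where 1.97% of all genes passed. With the library set as a block, which leaves that library without a partner, AIF1 and PTPRC passed with adjusted p of 0.0196 and 0.0237 in limma, where 1.25% of all genes passed. Over all alternatives the adjusted p ranged from 0.0168 to 0.690 for AIF1, from 0.0182 to 0.674 for PTPRC and from 0.0420 to 0.872 for ITGAM in limma. Without siR-GAL3 replicate 1, in contrast, the log2 fold change of ITGAM was 0.23. The log2 fold change of CSF1R became 0.28 without siR-GAL3 replicate 2, and the median of the 8 identity genes became 0.25.

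Each of the 2 sets compared here held a single siR-GAL3 library, and the share of all genes higher in siR-GAL3 within a set was not computed. Within set 1, where replicate 1 of each group could be compared, all 8 identity genes were higher in siR-GAL3, CX3CR1 by a factor of 1.65 and PTPRC by a factor of 1.83. Over all 6 libraries siR-Con replicate 1 was the lowest for 3 of the 8 and siR-GAL3 replicate 1 the highest for 4. Within set 2, 5 of the 8 were higher, and the ratio to the siR-Con mean was 1.66 for AIF1, 1.64 for PTPRC and 1.40 for ITGAM but 0.989 for CX3CR1, 0.961 for P2RY12 and 0.732 for GPR34. AIF1, PTPRC and ITGAM were higher in both sets, and CSF1 was lower in both, at ratios of 0.961 and 0.781. Since the groups of these genes did not overlap, their direction within a set was fixed beforehand and adds no support. CX3CR1, P2RY12 and GPR34 were higher in set 1 alone.

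Ratios between genes of 1 library were computed to set the identity genes against each other. PTPRC relative to CX3CR1 was 0.222 to 0.334 in siR-Con and 0.371 to 0.571 in siR-GAL3, and ITGAM relative to CX3CR1 was 0.354 to 0.506 and 0.552 to 0.700. The groups did not overlap in either ratio. AIF1 relative to CX3CR1 overlapped, at 0.398 to 0.523 in siR-Con and 0.497 to 1.36 in siR-GAL3, whereas relative to P2RY12 it was 0.977 to 1.29 and 1.48 to 2.63 without overlap. CSF1R relative to CX3CR1 was nearly constant, between 2.63 and 3.25 over all 6 libraries. Receptor relative to ligand, CSF1R to CSF1, measured 1.16, 1.33 and 1.52 with the control siRNA and 1.85, 1.45 and 1.94 with siR-GAL3, and overlapped through siR-GAL3 replicate 2. Several of these ratios share a gene and they were chosen with the values known, so no test is given.

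**Figure D4:**
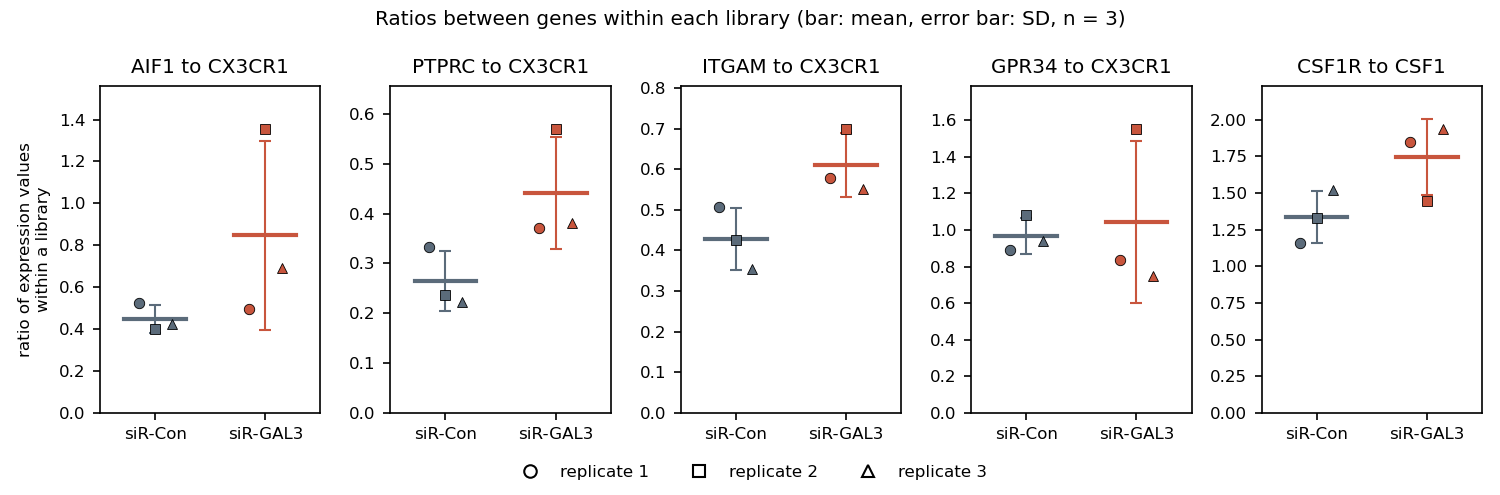
Ratio of 2 expression values within each library, with groups, symbols, means and SD as in the plot of the single genes. PTPRC and ITGAM relative to CX3CR1 are higher in each siR-GAL3 library, while AIF1 and GPR34 relative to CX3CR1 and CSF1R relative to CSF1 overlap between the groups.

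Other microglia and macrophage genes were read from lists written beside the 10 genes. Of 19 further microglia genes 16 were tested, and 8 of them were higher without overlap and with an unadjusted p under 0.05 in limma, against 10.3% and 4.41% of all genes, while none was lower by either rule. The median log2 fold change of the 16 was 0.25, and SALL1, OLFML3 and LAPTM5 were among those below 0. CD68, a lysosomal membrane protein of phagocytes, was 9.15 ± 0.412 in siR-Con and 13.8 ± 0.671 in siR-GAL3 (SD, n = 3 each), with a log2 difference of 0.54 (adjusted p = 0.101 in limma). FCER1G, the signalling chain of Fc receptors, was 11.8 ± 0.988 and 16.7 ± 1.39, and SELPLG, a selectin ligand, was 0.916 ± 0.0336 and 1.29 ± 0.0123 (SD, n = 3 each). C1QC, a chain of the complement starter C1q and the gene of this list with the highest mean, was 31.9 ± 2.27 and 39.4 ± 0.625 (SD, n = 3 each). Of the 6 border macrophage markers 5 were tested, and none was higher by either rule. The scavenger receptors STAB1 and CD163 were lower without overlap, against 10.3% of all genes, with log2 fold changes of -0.66 and -0.24, MRC1 overlapped at -0.12, and the list summed to 11.9 to 15.4 in siR-Con and 9.76 to 11.7 in siR-GAL3.

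Among the intracellular partners of CSF1R, 9 of 15 genes were tested and 3 were higher without overlap and with an unadjusted p under 0.05 in limma, against 10.3% and 4.41% of all genes. The median log2 fold change of the 9 was 0.12, and 3 lay below 0, CBL at -0.31, GAB2 at -0.16 and SOS1 at -0.11, each with overlap. RAC2, a small GTPase of blood-lineage cells, was 5.33 ± 0.366 in siR-Con and 7.69 ± 0.566 in siR-GAL3, and PTPN6, the phosphatase SHP-1, was 2.76 ± 0.261 and 4.001 ± 0.262 (SD, n = 3 each). The third was VAV1, an exchange factor for Rac, with a log2 fold change of 0.18. None of the 7 myeloid transcription factors tested had an unadjusted p under 0.05 in limma, and 1, CEBPB, was higher without overlap, against 10.3% of all genes. SPI1 (PU.1), the factor that specifies macrophages and microglia, was 1.28 ± 0.116 and 1.72 ± 0.348 (SD, n = 3 each), with overlap. IRF8, its partner, was 1.63 ± 0.253 and 2.00 ± 0.375 (SD, n = 3 each), also with overlap, and BHLHE41, a transcriptional repressor, overlapped at 5.73 ± 0.431 and 6.29 ± 1.42 (SD, n = 3 each).

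Of 17 other signals to microglia and their receptors 11 were tested, 6 with a log2 fold change above 0 and 5 below, with a median of 0.03. By overlap, 1 was higher and 3 were lower, each direction against 10.3% of all genes. CSF2RA, the alpha chain of the GM-CSF receptor, was higher without overlap, at 1.28 ± 0.436 in siR-Con and 2.15 ± 0.109 in siR-GAL3 (SD, n = 3 each), while its ligand CSF2, which was not tested, did not exceed 0.0476. TGFB2, SMAD3 and PTPRZ1 were lower without overlap. TGFB2, a member of the TGF-beta family, was the only 1 of them with an unadjusted p under 0.05 in limma. It was 8.26 ± 0.706 in siR-Con and 6.88 ± 0.310 in siR-GAL3 (SD, n = 3 each). TGFB1, TGFBR1 and TGFBR2 of the same list overlapped, with log2 fold changes of 0.11, 0.11 and -0.32. Whether TGF-beta signals to microglia differed between the groups was not tested. PTPRZ1, a glial receptor that also binds IL34, measured 14.1, 14.6 and 14.5 with the control siRNA and 13.3, 6.70 and 11.7 with siR-GAL3. The lowest value was again that of siR-GAL3 replicate 2. Astrocytes are among the cells that make CSF1, and 6 of the 8 astrocyte genes had a log2 fold change below 0, GFAP at -0.31, ALDH1L1 at -0.26 and SLC1A2 at -0.45, with SLC1A3 at 0.06 and GJA1 at 0.02 above 0. Of the 8, 3 were lower without overlap, GFAP, ALDH1L1 and ALDOC (-0.17), against 10.3% of all genes, while SLC1A2 overlapped. The list's sum was 927.6 to 1069 in siR-Con and 801.5 to 865.7 in siR-GAL3. GFAP alone was 571.1 to 757.7 in siR-Con and 514.8 to 533.4 in siR-GAL3, and so made up most of the sum. AQP4 and S100B, the next highest of the list, overlapped, with log2 fold changes of -0.21 and -0.08. No astrocyte marker was at 0, and the part of astrocyte RNA in the CSF1 difference was not tested.

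Promoter sequences from RefSeq (GRCr8) were matched by symbol for 5 of the 10 genes, CSF1R, CX3CR1, GPR34, ITGAM and PTPRC, and AIF1, P2RY12, TMEM119, CSF1 and IL34 were not matched. The 250 bases before the start site were searched on both strands for 3 forms of the purine-rich site of PU.1. These were GAGGAA, then the longer AGGAAGT, and its shifted form GGAAGTG, and matches of the 3 can overlap. Shown 5′ to 3′ on the gene's strand, with matches to these letters in capitals on either strand, are PTPRC and ITGAM, whose groups did not overlap, and CX3CR1, whose groups did, from chr13:52259747-52259996 (minus strand), chr1:192089342-192089591 (plus strand) and chr8:128677067-128677316 (minus strand).
PTPRC: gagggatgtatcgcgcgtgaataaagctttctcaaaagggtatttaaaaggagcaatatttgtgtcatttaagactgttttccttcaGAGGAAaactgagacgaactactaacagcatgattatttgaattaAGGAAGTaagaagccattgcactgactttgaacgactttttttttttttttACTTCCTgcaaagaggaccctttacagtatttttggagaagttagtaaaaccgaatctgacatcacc
ITGAM: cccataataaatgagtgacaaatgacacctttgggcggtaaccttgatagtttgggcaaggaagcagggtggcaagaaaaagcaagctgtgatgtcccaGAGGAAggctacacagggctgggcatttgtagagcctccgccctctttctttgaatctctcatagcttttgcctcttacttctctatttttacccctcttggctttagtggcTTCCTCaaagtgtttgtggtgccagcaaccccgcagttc
CX3CR1: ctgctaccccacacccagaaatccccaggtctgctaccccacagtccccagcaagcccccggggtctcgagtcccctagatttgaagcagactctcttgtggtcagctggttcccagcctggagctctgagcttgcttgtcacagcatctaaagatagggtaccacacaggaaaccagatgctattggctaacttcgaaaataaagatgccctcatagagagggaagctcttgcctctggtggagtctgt

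PTPRC held GAGGAA 1 time and AGGAAGT 2 times, with first bases 163, 118 and 67 bases before the start, and ITGAM held GAGGAA 2 times, at 151 and 39 bases. CSF1R also held GAGGAA 2 times and GPR34 1 time, although both overlapped between groups, and CX3CR1 held none of the 3 forms. GAGGAA was found in 23.3% of all 33469 promoters of the same length, AGGAAGT in 7.08% and GGAAGTG in 8.25%. A match describes the letters and not a bound site.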

How the data were processed

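Per the paper, the authors aligned reads with STAR, counted them per gene with HTSeq and estimated FPKM. Batch effects were then taken out, values standardized and differences within groups corrected, by unnamed tools, and the last step can narrow the spread that the p-values rest on. The labels give ribosomal RNA depletion and the supplement poly-T capture. A genome build is not given in the sources used here. The deposited values are a linear score derived from FPKM, 1 column per library, and 3.86% were below 0. All 6 columns were mapped by name. Negative values were replaced by 0 before log2(value + 1). limma 3.58.1 (R 4.3.3), with its prior variance following expression level, was run on the 8495 genes whose mean reached 1. TMEM119 and IL34, below it, came from a fit without this filter. Adjusted p-values are Benjamini-Hochberg values over all genes tested. Exact permutation tests used SciPy 1.17.1 in Python 3.11.15. The fit was tested on simulated data.

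The 10 genes, the lists and the library sets were chosen with earlier results of these data known. Named are the 10 genes, LGALS3, and of each list the 3 genes with the smallest p and, for cell types, the highest mean. RBFOX3, CSF2, SMAD3, S100A9, TGFB1, TGFBR1, TGFBR2, ALDOC, AQP4 and S100B were named in addition, after their values were seen. So were the genes given as moving against the rest of their list. Of the blood leukocyte list, values of only S100A8 and S100A9 are reported here. The lists cover further microglia genes, myeloid transcription factors, signals to microglia, CSF1R partners, neurons, astrocytes, oligodendrocyte lineage, fibroblasts, endothelium, border macrophages, blood leukocytes and cycling cells. Alternatives were another pseudocount, other filters, scalings, no trend, no log transformation, blocks and each library left out.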

Additional observations from a re-analysis of the deposited data

How the results depend on the processing

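AIF1, PTPRC, ITGAM and CSF1 kept the sign of their log2 fold change in all 16 alternatives. IL34 did so as well, but its values lay close to 0. Its ratio of siR-GAL3 to siR-Con was 3.47 within set 1 and 0.940 within set 2. For AIF1, PTPRC, ITGAM and CSF1, whose groups did not overlap, leaving out a library could not change the sign. Their unchanged sign in those fits is therefore no further support. CX3CR1, P2RY12, GPR34, TMEM119 and CSF1R changed sign when single libraries were left out, with ranges of -0.15 to 0.23, -0.059 to 0.11, -0.13 to 0.16, -0.010 to 0.046 and -0.064 to 0.28. Over these fits the median of the 8 identity genes lay between -0.0043 and 0.25, and it was 0.27 with the library set as a block. Between 2 and 5 of the 10 genes had an unadjusted p under 0.05 in limma. AIF1 and PTPRC were among them in each fit, ITGAM was lost without siR-Con replicate 1 or 3 or siR-GAL3 replicate 1 or 3, CSF1 without any siR-Con library or siR-GAL3 replicate 3, and CSF1R was gained without siR-GAL3 replicate 2. Beyond these fits, ITGAM also missed 0.05 without log transformation (unadjusted p = 0.0566 in limma) and CSF1 with the replicate block (unadjusted p = 0.0527 in limma), and CSF1R was gained with library sets blocked. A pseudocount of 0.1 raised the log2 fold change of PTPRC to 0.69. Of all genes, between 0 and 167 had an adjusted p under 0.05 with 1 library left out, the highest without siR-GAL3 replicate 2, 106 when library sets were blocked and 6 with the replicate block. An unadjusted p under 0.05 was found for 362 to 1381 genes with 1 library left out, 1174 when library sets were blocked and 1623 without a filter, where more genes are tested. The screening criteria were passed by 27 genes, by 15 without genes that held a value below 0 and by 367 without log transformation, where the threshold is 1 unit of expression. Same-numbered libraries of the groups had correlations of deviations of -0.17, -0.07 and 0.04 across genes, which do not settle whether they were paired. The replicate 1 libraries shared 1364 exactly equal values. With the replicate number as a block the smallest adjusted p of the 10 genes was 0.246 in limma. The causes of these shifts were not tested. The unknown depth limits the low genes, IL34 and TMEM119 most.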

Other observations

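Lists of other cells were read in the same way. Of the fibroblast and pericyte list 5 genes were tested, and COL3A1, COL1A1 and PDGFRB were lower in siR-GAL3 without overlap, with log2 fold changes of -0.50, -0.42 and -0.30 in limma, where 10.3% of all genes were lower without overlap. LUM overlapped at -0.47, and DCN lay above 0 at 0.16 with overlap. This list summed to 43.1 to 50.7 in siR-Con and 33.0 to 38.1 in siR-GAL3. Of the oligodendrocyte lineage list none of 7 tested genes had an unadjusted p under 0.05 in limma, and its sum was 881.3 to 939.8 and 875.8 to 1174, with log2 fold changes of -0.25 for PDGFRA, 0.17 for OLIG1 and 0.18 for MOG. The neuron list had 5 tested genes, of which STMN2 and SYT1 were higher without overlap, with log2 fold changes of 0.33 and 0.18, against 10.3% of all genes. ELAVL3 overlapped at 0.04, and the more abundant MAP2 and TUBB3 overlapped at -0.09 and -0.12. The 4 cycling cell genes had log2 fold changes between -0.28 for TOP2A and 0.04 for CDK1, with -0.22 for CCNB1, and TOP2A was lower without overlap, against 10.3% of all genes. No endothelial gene reached a mean of 1, and CDH5 was the highest, at 0.888 ± 0.0919 in siR-Con and 0.868 ± 0.0376 in siR-GAL3 (SD, n = 3 each). No gene of these lists had an adjusted p under 0.05, as was true of all genes tested.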
